A study of Homo sapiens with 4 samples.

Results

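The urea cycle turns ammonia into urea in the liver, and the genes described here encode its enzymes, the carriers that feed it across the inner mitochondrial membrane, and glutamine synthetase. The 10 genes, of 18398 rows in each deposited file, were taken by gene symbol: NAGS, CPS1, OTC, SLC25A15, SLC25A13, ASS1, ASL, ARG1, ARG2 and GLUL. SLC25A15 was chosen by its measured values, because it was more than 2-fold lower after CDCA8 knockdown in both cell lines, and the other 9 genes are its neighbours in the pathway. The knockdown values of all 10 genes are therefore given as a description, with no test.

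RNA was sequenced from Huh1 and Huh7, a pair of established human hepatocellular carcinoma lines, after lipid transfection with a siRNA against CDCA8 (CDCA8siRNA) or a negative control siRNA (NCsiRNA), described in the study's methods as matching no transcript of the cells. CDCA8 encodes borealin, a subunit of the chromosomal passenger complex that acts in cell division. There were 4 libraries, 1 for each combination of line and siRNA, so no condition has a replicate and each knockdown value sets 1 library against 1 library. Every library comes from transfected cells, and loss of CDCA8 cannot be told apart here from effects of the siRNA on other transcripts. The labels name no siRNA variant, and the study's text names CDCA8-1siRNA for its sequencing. The values are RPKM, a read density per length of transcript and per library depth, so that levels can be compared between genes. By the worth of 1 read the libraries held between 12197606 and 13384836 reads. CDCA8 stood at 24.1 RPKM with NCsiRNA and 5.86 with CDCA8siRNA in Huh1, and at 51.5 and 7.36 RPKM in Huh7. All 9 hepatocyte markers examined, ALB, APOB and HNF4A among them, were above 1 RPKM in every library. Their summed level was 5215 RPKM with NCsiRNA and 4004 with CDCA8siRNA in Huh1, and 3308 and 2321 in Huh7. ALB alone gave 3447 and 2684 RPKM in Huh1, and 1166 and 721 in Huh7. Of the 9 markers, 8 were lower with CDCA8siRNA in each line, the direction also seen for most of the urea cycle genes. The markers that were higher were AFP in Huh1 (24.8 and 27.5 RPKM) and TTR in Huh7 (29.3 and 48.5). Of all genes that reached 1 RPKM in either library of a line, 44.9% were lower in Huh1 and 45.5% in Huh7. The part of the lower hepatocyte markers in the values below was not tested. The cells were cultured as established lines, so a mix of tissue cell types is not part of the design. The markers here and below are read as expression of the lines. Endothelial markers summed to at most 0.0247 RPKM (3 of the 4 genes, with CDH5 at 0 in every library). Of the 5 stellate or fibroblast markers, 0 reached 1 RPKM in Huh1, where they summed to at most 0.211 RPKM, and 3 did in Huh7, with COL1A1 at 107.1 RPKM with NCsiRNA and 125.3 with CDCA8siRNA and COL1A2 at 31.4 and 56.9. In Huh7 this set summed to 141 and 187 RPKM and 0 of its 5 genes were lower with CDCA8siRNA, the opposite direction to the hepatocyte markers, and its part in the values below was not tested. Of 4 leukocyte markers only CD68, which is also expressed outside leukocytes, passed 1 RPKM in any library, and their summed level ranged from 3.84 to 23.6 RPKM.

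As background, the cycle begins in the mitochondrial matrix. NAGS makes N-acetylglutamate, the obligate activator of CPS1, which joins ammonia and bicarbonate into carbamoyl phosphate, and OTC transfers that group to ornithine to give citrulline. SLC25A15 carries ornithine into the matrix in exchange for citrulline, and SLC25A13 (citrin) exports the aspartate that the next step needs. In the cytosol ASS1 and ASL build and split argininosuccinate, and ARG1 cleaves arginine to urea and ornithine. ARG2 is the mitochondrial arginase, found mainly outside the liver. GLUL, glutamine synthetase, takes up ammonia by another route and in liver is restricted to hepatocytes around the central vein.

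The genes lie apart in the genome. On GRCh38 in GENCODE release 29, SLC25A15 spans chromosome 13 from 40789412 to 40810111 on the plus strand, and its deposited mRNA, NM_014252, is matched to a transcript of 7 exons. ARG1 (NM_000045) spans chromosome 6 from 131573144 to 131584332 in 8 exons, and ARG2 (NM_001172) spans chromosome 14 from 67619798 to 67651720, also in 8 exons. CPS1 (NM_001875) spans chromosome 2 from 210477682 to 210679107 in 38 exons, and OTC (NM_000531) the X chromosome from 38352545 to 38421450 in 10 exons. SLC25A15 and ARG1 had the largest knockdown differences of the members in Huh7. ARG2 is the paralogue of ARG1, and OTC is one of the genes read almost only in Huh1. For these reasons the sequences just before the annotated starts of SLC25A15, ARG1, ARG2 and OTC are shown. They come from RefSeq promoter windows on GRCh38.p14, cut at the first GENCODE start of the gene, and each is printed 5′ to 3′ on the plus strand. The positions are chr13:40789361-40789411, chr6:131572976-131573143, chr14:67619670-67619797 and chrX:38352354-38352544. Capitals mark the box with the letters CCAAT, the cAMP response element with TGACGTCA, the TATA box with TATAAA and the GC box with GGGCGG, searched on both strands, so that a reverse complement is also in capitals, and none of the motifs contains another. RefSeq windows were matched for 8 of the 10 genes, all but CPS1 and GLUL.
SLC25A15: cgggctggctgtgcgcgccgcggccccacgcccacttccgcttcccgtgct
ARG1: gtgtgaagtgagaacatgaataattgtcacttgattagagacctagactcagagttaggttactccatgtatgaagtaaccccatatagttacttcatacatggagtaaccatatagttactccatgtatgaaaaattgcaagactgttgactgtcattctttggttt
ARG2: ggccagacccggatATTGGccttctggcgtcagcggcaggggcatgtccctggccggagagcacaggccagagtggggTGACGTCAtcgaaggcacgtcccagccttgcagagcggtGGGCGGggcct
OTC: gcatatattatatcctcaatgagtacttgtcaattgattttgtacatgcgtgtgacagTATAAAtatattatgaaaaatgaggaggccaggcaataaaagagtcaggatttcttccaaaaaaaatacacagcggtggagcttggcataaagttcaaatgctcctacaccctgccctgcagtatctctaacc

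The paralogous arginase genes differ in base composition and motifs before their RefSeq starts. In the 250 bases before the RefSeq start, G and C make up 37.6% for ARG1 and 40.4% for OTC, but 72.4% for ARG2 and 79.6% for SLC25A15, where the median of all 35116 RefSeq windows of that length is 58%. ARG2 holds 2 copies of TGACGTCA in that window, a motif present in 1.65% of all windows, and SLC25A15 and ARG1 hold 0. ARG1 and OTC each hold 1 TATAAA, present in 10.7% of all windows. SLC25A15 holds 4 copies of GGGCGG and ARG2 holds 5, and 42.6% of all windows have at least 1. CCAAT, present in 32% of all windows, occurs 2 times for ARG2 and 0 times for SLC25A15, ARG1 and OTC. The printed stretches end earlier, at the first GENCODE start, and hold fewer matches. They hold 0 GGGCGG for SLC25A15 and 0 TATAAA for ARG1. For ARG2 they hold 1 each of TGACGTCA, GGGCGG and CCAAT. The other matches of these genes reach past that start. All these matches describe letters in a window and do not show binding.

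Neither line carried every urea cycle transcript at a clear level. In Huh1 with NCsiRNA the order from the top was CPS1 at 95.03 RPKM, SLC25A13 at 63.8, ASL at 57.1, GLUL at 38.9, ASS1 at 28.7, ARG2 at 15.4, SLC25A15 at 8.57, OTC at 1.86, ARG1 at 1.39 and NAGS at 0.0361. In Huh7 with NCsiRNA it was SLC25A13 at 34.8 RPKM, GLUL at 28.3, ARG2 at 25.1, ASL at 17.9, SLC25A15 at 15.3, ARG1 at 6.18, ASS1 at 1.95, NAGS at 1.03, CPS1 at 0.0996 and OTC at 0.0498. Huh1 thus had CPS1 as its highest member and almost no reads of NAGS, while in Huh7 NAGS stood above CPS1 and CPS1 was under 1 RPKM. By 95% exact Poisson intervals on reads, which hold counting error only, the neighbours OTC and ARG1 overlapped in Huh1 with NCsiRNA. In Huh7 with NCsiRNA the overlapping neighbours were GLUL and ARG2, ASL and SLC25A15, ASS1 and NAGS, and CPS1 and OTC. With CDCA8siRNA, ASL, SLC25A13 and CPS1 overlapped as neighbours at the top in Huh1, as did SLC25A15 and OTC lower down. In Huh7 with CDCA8siRNA, neighbours overlapped from GLUL down to ASL and from SLC25A15 down to NAGS, and CPS1 overlapped OTC.

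**Figure D1:**
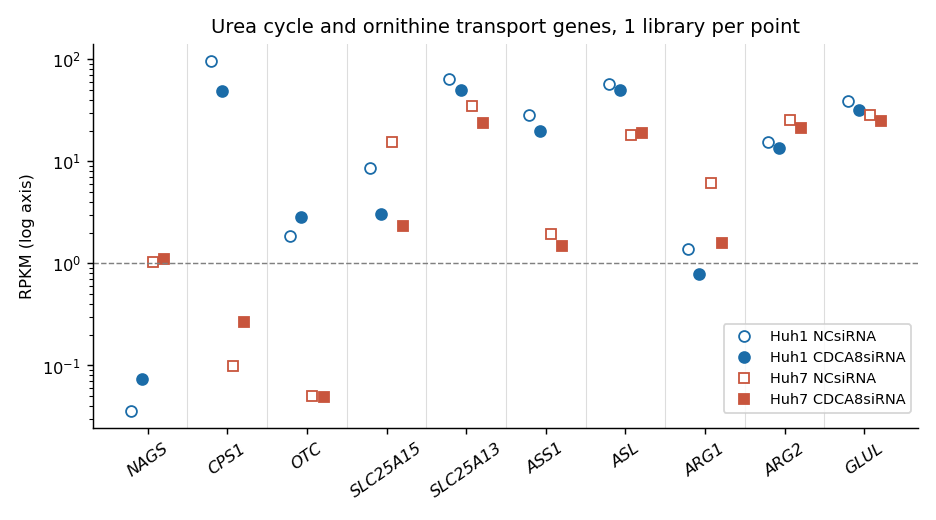
RPKM on a log axis for the 10 genes, 1 point per library, with open symbols for NCsiRNA, filled symbols for CDCA8siRNA, circles for Huh1 and squares for Huh7; the dashed line marks 1 RPKM. CPS1 and OTC of Huh7 and NAGS of Huh1 lie under the line in both libraries, and SLC25A15 and ARG1 have the widest gaps between open and filled symbols in Huh7.

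NAGS was close to absent in Huh1. It had 0.0361 RPKM with NCsiRNA and 0.0732 with CDCA8siRNA, about 1 and 2 reads, against 1.03 and 1.10 RPKM in Huh7, about 27 and 29 reads. The Huh7 values overlap within counting error, with a CDCA8siRNA to NCsiRNA ratio of 1.07 (95% interval 0.61 to 1.87, exact Clopper-Pearson on reads). Both Huh1 values are under the floor of 3 reads, so no ratio is given there.

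CPS1, the entry enzyme of the cycle, was the most strongly expressed member in Huh1 and showed a large absolute difference there. It stood at 95.03 RPKM with NCsiRNA and 49.2 with CDCA8siRNA, about 7404 and 3778 reads. The ratio was 0.518 (95% counting interval 0.498 to 0.538), just short of a 2-fold difference. On the log2(RPKM + 1) scale, which makes differences of low values smaller, the difference was -0.94. In Huh7 CPS1 had 0.0996 RPKM with NCsiRNA and 0.269 with CDCA8siRNA, about 7 and 19 reads, a ratio of 2.70 (1.09 to 7.60) on a level under 1 RPKM in both libraries.

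OTC, the citrulline-forming enzyme, was read at low level in Huh1 and hardly at all in Huh7. In Huh1 it had 1.86 RPKM with NCsiRNA and 2.85 with CDCA8siRNA, about 39 and 60 reads, a ratio of 1.53 (95% counting interval 1.03 to 2.40). It was the only member above 1 RPKM whose Huh1 value was higher with CDCA8siRNA. In Huh7 OTC had 0.0498 and 0.0495 RPKM, about 1 read in each library, and no ratio is given.

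SLC25A15, the ornithine carrier, was the member for which the group was assembled. In Huh1 it had 8.57 RPKM with NCsiRNA and 3.04 with CDCA8siRNA, about 182 and 64 reads, and kept 35.5% of its control value (95% counting interval of the ratio 0.264 to 0.477). In Huh7 it had 15.3 RPKM with NCsiRNA and 2.30 with CDCA8siRNA, about 296 and 45 reads, and kept 15.1% (ratio interval 0.108 to 0.207). The log2(RPKM + 1) differences were -1.24 and -2.30, the 6th lowest of 10940 genes in Huh1 and the 3rd lowest of 11565 genes in Huh7. The counting intervals of the 2 ratios do not overlap, but with 1 library per condition the difference between the lines was not tested. With NCsiRNA SLC25A15 was 1.78-fold higher in Huh7 than in Huh1 (1.48 to 2.16), and with CDCA8siRNA the Huh7 level was 0.756 of the Huh1 level (0.505 to 1.12). GENCODE release 29 lists 5 pseudogenes named after SLC25A15, and how reads shared with them were counted is not given in the sources used here.

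The threshold that chose SLC25A15 was 2-fold in both lines, and no other member met it. The members nearest outside were ARG1, at -0.42 in Huh1 and -1.48 in Huh7 on the log2(RPKM + 1) scale, and CPS1, at -0.94 in Huh1 and under 1 RPKM in Huh7. Across all genes that reached 1 RPKM in either library of the line, 0.174% were at least 2-fold lower in Huh1 and 0.7% in Huh7, and 0.32% and 0.873% were at least 2-fold higher. Among the members, 9 passed that filter in Huh1, of which 1 was at least 2-fold lower and 0 higher. In Huh7 8 passed, of which 2 were at least 2-fold lower, SLC25A15 and ARG1, and 0 higher. The split over all genes in Huh1 was 35 higher and 19 lower, and 22 higher and 20 lower after quantile normalization. In total 10 of the 10357 genes that passed in both lines were 2-fold lower in both.

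SLC25A13, the aspartate exporter of the same carrier family, was lower with CDCA8siRNA in both lines by a smaller amount. It had 63.8 and 49.8 RPKM in Huh1, a ratio of 0.782 (95% counting interval 0.738 to 0.828). In Huh7 it had 34.8 and 23.7 RPKM, a ratio of 0.681 (0.625 to 0.741). These values rest on 910 reads or more per library, so counting error is small beside the differences, while the spread between cultures was not measured.

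ASS1 and ASL, the cytosolic enzymes that make and split argininosuccinate, were both higher in Huh1. ASS1 had 28.7 RPKM with NCsiRNA and 19.9 with CDCA8siRNA in Huh1, a ratio of 0.695 (95% counting interval 0.611 to 0.79). In Huh7 it had 1.95 and 1.48 RPKM on about 37 and 28 reads, a ratio of 0.757 (0.444 to 1.26) that includes no change. GENCODE lists 11 pseudogenes of ASS1, so its reads may be shared with copies and its level is uncertain. ASL had 57.1 and 50.2 RPKM in Huh1, a ratio of 0.88 (0.819 to 0.945), and 17.9 and 18.9 RPKM in Huh7, a ratio of 1.06 (0.929 to 1.20).

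The arginase genes gave different values. ARG1, the cytosolic liver arginase, had 6.18 RPKM with NCsiRNA and 1.58 with CDCA8siRNA in Huh7, about 115 and 30 reads, and kept 25.5% of its control value (95% counting interval of the ratio 0.167 to 0.391). In Huh1 it had 1.39 and 0.786 RPKM on about 29 and 16 reads, a ratio of 0.564 (0.284 to 1.07), so at this depth a difference was not detectable there. ARG2, the mitochondrial enzyme, was the more abundant arginase in every library. It had 15.4 and 13.6 RPKM in Huh1, a ratio of 0.882 (0.766 to 1.02), and 25.1 and 21.1 RPKM in Huh7, a ratio of 0.839 (0.746 to 0.943). In Huh7 the intervals of the ARG1 and ARG2 ratios lie apart.

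GLUL, which fixes ammonia into glutamine, differed little. It had 38.9 RPKM with NCsiRNA and 31.8 with CDCA8siRNA in Huh1, a ratio of 0.818 (95% counting interval 0.771 to 0.869), and 28.3 and 25.1 RPKM in Huh7, a ratio of 0.884 (0.823 to 0.949). GENCODE lists 4 pseudogenes of GLUL.

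**Figure D2:**
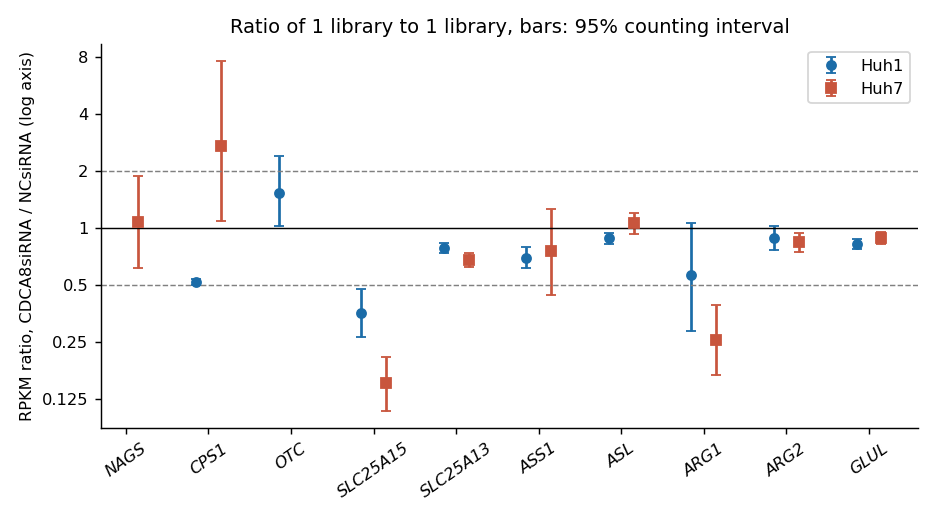
RPKM with CDCA8siRNA divided by RPKM with NCsiRNA on a log axis, circles for Huh1 and squares for Huh7, each 1 library against 1 library, with 95% exact Clopper-Pearson counting intervals as bars; dashed lines mark ratios of 0.5 and 2. NAGS in Huh1 and OTC in Huh7 have 2 reads or fewer and are not drawn, and SLC25A15 lies under 0.5 in both lines.

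Of the members that passed the filter, 8 of 9 were lower with CDCA8siRNA in Huh1 and 6 of 8 in Huh7, and 6 were lower in both lines, namely SLC25A15, SLC25A13, ASS1, ARG1, ARG2 and GLUL. The median log2(RPKM + 1) difference was -0.35 over the 9 members that passed the filter in Huh1 and -0.25 over the 8 in Huh7. Over all genes that passed, the medians were 0.02 and 0.03, with an SD across genes of 0.261 and 0.347. Of all genes that passed, 44.9% were below 0 in Huh1 and 45.5% in Huh7. The members were chosen with this contrast known, and members that passed only through 1 line are among those counted, so nothing is drawn from these medians.

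**Figure D3:**
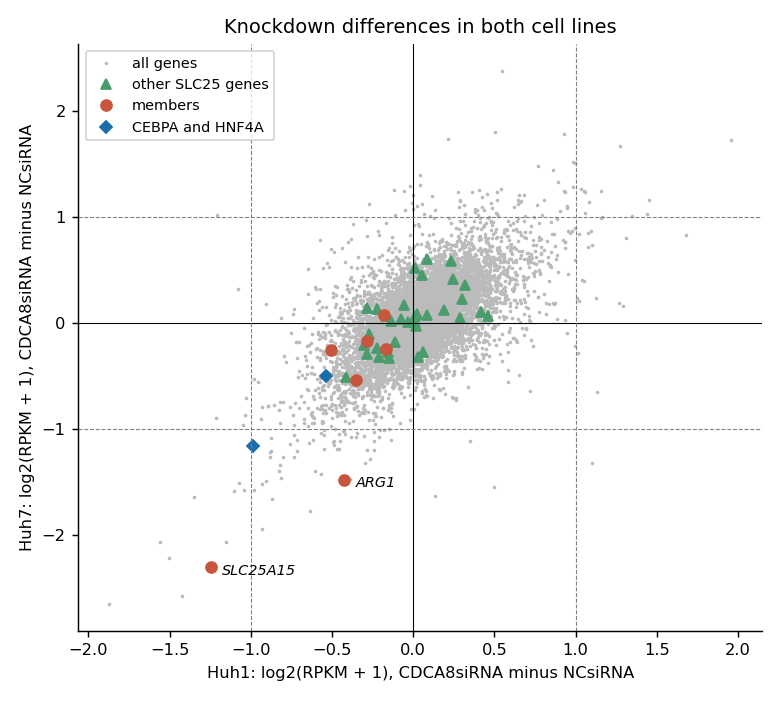
Difference in log2(RPKM + 1), CDCA8siRNA minus NCsiRNA, in Huh1 (horizontal) and Huh7 (vertical) for the 10357 genes above the filter in both lines, with the 7 members that passed in both as red circles, other SLC25 genes as green triangles, and CEBPA and HNF4A as blue diamonds; dashed lines mark 2-fold. SLC25A15 lies at -1.24 and -2.30 and ARG1 at -0.42 and -1.48, while the other SLC25 genes lie within 1 of 0 on both axes.

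The genes whose pair of knockdown differences lay nearest to that of SLC25A15 were CKAP4, TMEM176B, FKBP4, VTA1 and CPNE3. They were sought among 7395 genes with at least 5 RPKM in both NCsiRNA libraries, by Euclidean distance over the 2 log2(RPKM + 1) differences. CKAP4 was at a distance of 0.254, with differences of -1.15 in Huh1 and -2.07 in Huh7, and CPNE3, the farthest of the 5, at 0.481 with -0.93 and -1.94. Such likeness rests on 1 difference per line.

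The difference between the cell lines is a separate contrast from the one that chose SLC25A15, and it was tested. limma was fitted to the 4 libraries on log2(RPKM + 1) with the siRNA as a covariate, so that the 2 libraries of a line stand as its samples. The p-values rest on the spread left after the line and siRNA terms, on 1 residual degree of freedom per gene. That spread is how far the knockdown differences of Huh1 and Huh7 disagree. To it limma adds a spread shared across genes, worth 6.91 degrees of freedom. The spread between cultures is not measured. Of 11777 genes, 29.1% were lower and 42% higher in Huh7 at an adjusted p under 0.05, so most genes were called and a call alone says little. All 10 members entered the fit and 9 were called, 6 lower and 3 higher in Huh7. The fit took genes that reached 1 RPKM in 2 or more libraries. CPS1 and OTC reached it only in Huh1, and NAGS only in Huh7. Each was let in by the line where it was higher, so its call is no support and its p-value is not given. The median difference over all genes was 0.13.

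On the log2(RPKM + 1) scale CPS1 and ASS1 had the largest differences. CPS1 had a difference of -5.88 ± 0.23 (Huh7 minus Huh1, limma standard error, 2 libraries per line). Its NCsiRNA ratio of Huh1 to Huh7 was 954 (95% counting interval 468 to 2398), resting on about 7 reads in Huh7. With CDCA8siRNA that ratio was 183 (118 to 307). ASS1 had a difference of -3.20 ± 0.12 (limma, adjusted p = 2.13e-07), with Huh1 to Huh7 ratios of 14.7 under NCsiRNA and 13.5 under CDCA8siRNA. OTC had -1.66 ± 0.17. Its Huh1 to Huh7 ratios, 37.4 under NCsiRNA (95% counting interval 6.01 to 1439) and 57.6 under CDCA8siRNA (9.64 to 2240), were above those of ASS1. They rest on about 1 read in each Huh7 library. With a pseudocount of 0.1 RPKM the order changed, with OTC at -4.01 below ASS1 at -3.74, and NAGS at 2.92 above ARG1 at 1.496. ASL had -1.49 ± 0.10 (limma, adjusted p = 4.92e-06), SLC25A13 -0.95 ± 0.09 (adjusted p = 3.98e-05) and GLUL -0.39 ± 0.09 (adjusted p = 0.00555). All 6 were higher in both Huh1 libraries than in either Huh7 library.

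The genes higher in Huh7 were ARG1, NAGS and ARG2. ARG1 had a difference of 1.06 ± 0.23 (limma, adjusted p = 0.00361), with Huh7 to Huh1 ratios of 4.43 under NCsiRNA and 2.01 under CDCA8siRNA. NAGS had 0.97 ± 0.16, with Huh7 to Huh1 ratios of 28.5 under NCsiRNA (95% counting interval 4.88 to 1213) and 15.1 under CDCA8siRNA (3.95 to 135), on about 1 and 2 reads in Huh1. ARG2 had 0.64 ± 0.10 (limma, adjusted p = 0.000518). SLC25A15 was not called, at 0.24 ± 0.22 (limma, adjusted p = 0.36). Its lines changed order between siRNAs, with 0.77 between the NCsiRNA libraries and -0.29 between the CDCA8siRNA libraries. The standard error of SLC25A15 includes the gap between its knockdown differences, -1.24 in Huh1 and -2.30 in Huh7. Its line result is therefore not free of the values that chose it. Fitted with no siRNA term, ARG1 (adjusted p = 0.13) and GLUL (adjusted p = 0.0669) lost their calls in limma.

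**Figure D4:**
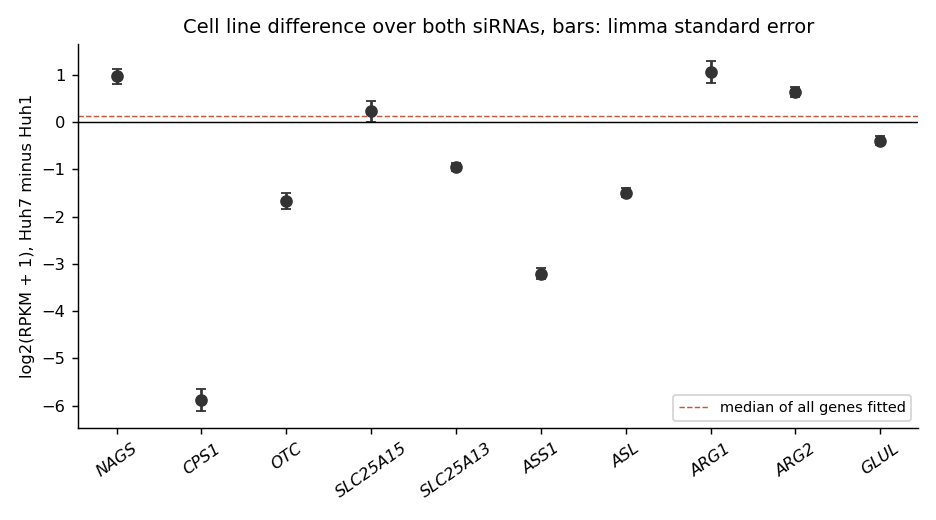
Difference in log2(RPKM + 1), Huh7 minus Huh1, over both siRNAs for the 10 genes, with limma standard errors as bars and the median of all fitted genes, 0.13, as a dashed line. CPS1 at -5.88 and ASS1 at -3.20 lie lowest and ARG1 at 1.06 highest on this scale, an order that changes with a pseudocount of 0.1 RPKM, and the bar of SLC25A15 reaches the dashed line.

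Genes around the cycle were examined in the knockdown effect over both lines, by limma on log2(RPKM + 1) with the cell line as a covariate. Over all 10357 genes tested, 4.21% were lower and 6.03% higher at an adjusted p under 0.05. These p-values ask whether the mean difference over both lines is 0. The error is how far Huh1 and Huh7 disagree, moderated by a spread shared across genes. A call does not mean that both lines changed by the same amount, and the spread between cultures was not measured. With no cell line term limma called 0 genes (89 at an unadjusted p under 0.05), and with no filter on low values also 0 (2050), so each call below is lost in both.

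A list of 28 genes covered ornithine, arginine, proline, creatine and polyamine metabolism. Of these, 26 were in the files and 20 were tested, with 1 higher and 2 lower, and a median effect of 0.04 beside 0.03 over all genes. SAT1, which acetylates polyamines for export and breakdown, rose in Huh1 (21.3 to 27.6 RPKM) and in Huh7 (28.2 to 52.4 RPKM), with a limma effect over both lines of 0.61 ± 0.13 (adjusted p = 0.0182). GAMT, the last enzyme of creatine synthesis, fell in Huh1 (12.9 to 9.24 RPKM) and in Huh7 (56.5 to 34.0 RPKM), with a limma effect over both lines of -0.58 ± 0.11 (adjusted p = 0.0123). AGMAT, named as agmatine ureohydrolase, fell in Huh1 (40.8 to 31.1 RPKM) and in Huh7 (17.5 to 10.7 RPKM), with a limma effect over both lines of -0.52 ± 0.11 (adjusted p = 0.0188). Among those not called were OAT, the ornithine aminotransferase that competes for ornithine in the matrix, with 31.0 and 23.3 RPKM in Huh1 and 43.8 and 41.0 in Huh7, and ODC1, which turns ornithine into putrescine, with 103 and 119.7 RPKM in Huh1 and 167 and 168 in Huh7. SLC25A2, a close paralogue that also carries ornithine, was at most 0.115 RPKM in any library and was not tested.

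Genes of glutamine, glutamate, aspartate and ammonia metabolism gave 1 higher and 2 lower of 20 tested, of 25 listed, with a median effect of -0.04. For all genes tested the shares were 6.03% higher and 4.21% lower, with a median effect of 0.03. GLUD1, the glutamate dehydrogenase that releases ammonia in the matrix, fell in Huh1 (83.9 to 60.8 RPKM) and in Huh7 (106 to 50.8 RPKM), with a limma effect over both lines of -0.75 ± 0.13 (adjusted p = 0.0093). Its near-identical copy GLUD2 may share its reads, and was not called. PPAT, which uses glutamine in purine synthesis, had 16.7 and 13.3 RPKM in Huh1 and 21.2 and 14.4 in Huh7, an effect of -0.41 ± 0.11 (limma, adjusted p = 0.0403), a call lost without the mean-variance trend. GFPT1, which uses glutamine for hexosamines, had 21.4 and 29.8 RPKM in Huh1 and 17.6 and 30.4 in Huh7 (limma, 0.61 ± 0.11, adjusted p = 0.0106). SLC25A12, the other aspartate and glutamate carrier, had 4.42 and 5.38 RPKM in Huh1 and 7.16 and 11.2 in Huh7 and was not called (limma, adjusted p = 0.0755).

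SLC25A15 and SLC25A13 belong to the mitochondrial carrier family. Of 42 other SLC25 genes listed, 34 were tested, with 0 higher and 1 lower, and a median effect of -0.01. Over all genes tested, 6.03% were higher and 4.21% lower. The 1 was SLC25A11, the oxoglutarate carrier, which fell in Huh1 (28.1 to 20.8 RPKM) and in Huh7 (40.8 to 28.3 RPKM), with a limma effect over both lines of -0.46 ± 0.09 (adjusted p = 0.0184). Some of these genes, such as SLC25A12 and SLC25A29, are also in the lists above.

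Of 12 regulators known to act on urea cycle genes, 10 were tested, with 0 higher and 2 lower and a median effect of -0.15. Among all genes tested the shares were 6.03% higher and 4.21% lower, with a median effect of 0.03. CEBPA, a liver transcription factor, fell in Huh1 (94.4 to 47.2 RPKM) and in Huh7 (68.9 to 30.3 RPKM), with a limma effect over both lines of -1.07 ± 0.09 (adjusted p = 0.000787). HNF4A, the hepatocyte nuclear receptor, fell in Huh1 (86.1 to 59.1 RPKM) and in Huh7 (55.4 to 38.8 RPKM), with a limma effect over both lines of -0.52 ± 0.09 (adjusted p = 0.00878). HNF4A is also among the hepatocyte markers above, whose summed level was lower with CDCA8siRNA in both lines. Of 12 genes of the pericentral zone where GLUL is high in liver, 6 were tested and 0 were called. Their values pointed both ways. AXIN2, a feedback target of beta-catenin, had 3.53 and 3.55 RPKM in Huh1 and 2.27 and 2.91 in Huh7, and TBX3, a transcription factor, had 7.41 and 5.92 in Huh1 and 11.9 and 11.1 in Huh7. LGR5, a receptor that strengthens Wnt signalling, was under 0.1 RPKM in Huh1 and so was not tested, with 9.43 and 5.35 RPKM in Huh7.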

How the data were processed

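RNA of 4 libraries, Huh1 and Huh7 each with NCsiRNA or CDCA8siRNA, was analysed. The authors deposited 1 RPKM value per RefSeq mRNA, 18398 per library, with no header. The unit was deduced, since low values multiplied by transcript length fall on multiples of 1 constant per library. The submitters' processing notes name CASAVA 1.8.2, TopHat2 2.0.9 and hg19. The read counter, annotation and filters are not given in the sources used here. Lengths came from GENCODE release 29, matched by RefSeq identifier for 17768 rows, and gave the approximate reads behind a value. Where that length differs from the authors' length, reads and intervals are off. Intervals cover counting error only, and reads without molecular identifiers are not independent molecules.

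Differences were taken on log2(RPKM + 1) over genes that reached 1 RPKM in either library of a line. limma 3.58.1 in R 4.3.3 (lmFit, eBayes with trend, Benjamini-Hochberg adjustment) was fitted to all 4 libraries, for the knockdown effect over genes above 1 RPKM in each line, and for the line difference over genes that reached 1 RPKM in 2 or more libraries. The limma steps were tried on simulated normal noise with 2-fold changes put in. That setting is simpler than these unreplicated libraries and does not measure the spread between cultures. Python 3.11.15, numpy 2.4.6, pandas 2.3.3 and scipy 1.17.1 were used for the rest. Named genes were the 10 members, CDCA8, the 5 genes nearest to SLC25A15 and up to 4 called genes per related list with the largest effect, and further genes of the fixed lists were named after their values were seen. The members and lists were chosen with earlier results of these data known. The alternatives tried were another pseudocount, other minimum values, other scalings and other limma settings.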

Additional observations from a re-analysis of the deposited data

Results flagged for a closer look

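ASL was the only member past the filter in both lines whose knockdown values pointed in opposite directions, with a log2(RPKM + 1) difference of -0.181 in Huh1 and 0.0755 in Huh7. The difference between the lines was not tested, since each value is 1 library against 1 library. The 95% counting interval of the ASL ratio in Huh7, 0.929 to 1.20, includes no change. CPS1 did not pass the filter in Huh7, and its ratios also pointed in opposite directions. They were 0.518 (0.498 to 0.538) in Huh1 and 2.70 (1.09 to 7.60) in Huh7, the latter on about 7 and 19 reads.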

How the results depend on the processing

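The counts of members at least 2-fold lower (1 in Huh1, 2 in Huh7) or higher (0 in both) were the same under each of the 5 alternatives tried. Over all genes, a pseudocount of 0.1 RPKM gave 107 higher and 57 lower in Huh1 (164 in all) and 269 higher and 153 lower in Huh7 (422 in all), against 54 and 182 in all with 1 RPKM, and quantile normalization gave 22 higher in Huh1. The knockdown effect over both lines called 1061 genes, and limma called 0 with no filter on low values (2050 at an unadjusted p under 0.05) or without the cell line covariate (89). Genes called lower numbered 436, 750 after quantile normalization and 267 without the trend. With no filter or no cell line covariate, none of the 9 list genes named in the report kept its call, and PPAT also lost it without the trend (adjusted p = 0.0654). The line difference called 8380 genes, and 5433 with no filter, 2119 of them lower in Huh7. Of the members, 9 were called, and between 6 and 9 under the alternatives. OTC, ARG1 and NAGS were not fitted at a minimum of 5 RPKM, nor NAGS after quantile normalization. ARG1 (adjusted p = 0.194) and GLUL (adjusted p = 0.0542) lost their calls with no filter. The cause was not tested. With a pseudocount of 0.1 RPKM the Huh7 differences of SLC25A15 and ARG1 became -2.68 and -1.90, and the line differences of NAGS and OTC 2.92 and -4.01. Between the CDCA8siRNA libraries alone SLC25A15, which was not called, was lower in Huh7 (-0.29). No called value changed direction under the alternatives run. No paired analysis was possible because the labels number no replicates, other than the pairing within a line that the cell line term gives, and no replicate could be left out.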
